A study of Mus musculus with 2 samples.

Results

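Of the 51356 deposited ChIP-seq peaks of a protein with the mouse Dux homeodomains, 10251 lay deep inside protein-coding genes of moderate length. These peaks, called members below, were chosen from chromosomes 1 to 19 (49034 peaks) by position alone. The summit of a member lies inside an annotated protein-coding gene span of mm10, more than 5 kb from either end of every protein-coding gene, and every coding gene over it spans less than 300 kb. Members made up 20.9% of the peaks on these chromosomes (exact binomial 95% interval 20.5 to 21.3%).

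The peaks mark DNA that was precipitated with the protein and sequenced (ChIP-seq) from C2C12, an established line of mouse myoblasts. The cells came from 1 monoclonal line selected with puromycin, in which doxycycline switches on MMH, a transgene made of codon-altered mouse Dux up to the end of its homeodomains, followed by human DUX4 from just behind its own homeodomains. Both libraries came from cells of this line given 2 ug/ml doxycycline for 18 h. The first used the DUX4 antisera MO488 and MO489, and the second was a control precipitation whose sample label names an HA antibody while the design text names GFP. Cells that lack the transgene or the drug were not analysed here, and the forced, drug-driven expression in a single clone limits what the peaks say about natural Dux.

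Dux in mouse and DUX4 in human are transcription factors with paired homeodomains, made for a short time in the cleavage-stage embryo, where they switch on early embryonic genes and endogenous retroviral promoters. Homeodomains contact short AT-rich words in DNA, and a pair of them can read a composite of adjoining words. The interior of a long coding gene is mostly intron, which can hold enhancers, transposable elements and internal promoters of alternative or antisense transcripts.

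Sequence could be read at 21 members, those whose summit and the 20 bases on each side fell within a RefSeq promoter window, which runs from 250 bases before to 50 bases after an annotated start (GRCm38.p6, the assembly of mm10). These are members at internal starts: either an alternative start of the gene itself, or the start of another transcript inside it. Each is labelled with the coding gene that holds the summit. Among those shown, the start is that of another gene at *Meis1* (*Gm16141*), *Myl4* (*Gm11665*), *Rai14* (*Gm52214*), *Mllt10* (*Gm39761*) and *Rnf169* (*Gm5115*). The 11 with at least 10-fold enrichment are shown first, in order of enrichment, as the base at the summit and 20 on each side, on the strand of the listed start. Capitals mark AATCA, or TGATT, which is the same word on the opposite strand.
*Meis1*, chr11:18989578-18989618, plus strand: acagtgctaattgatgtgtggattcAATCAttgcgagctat
*Myl4*, chr11:104562265-104562305, minus strand: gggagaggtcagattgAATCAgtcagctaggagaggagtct
*Elmo2*, chr2:165316496-165316536, minus strand: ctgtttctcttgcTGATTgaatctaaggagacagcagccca
*Sh2d3c*, chr2:32727472-32727512, plus strand: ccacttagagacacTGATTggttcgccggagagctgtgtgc
*Rai14*, chr15:10708886-10708926, plus strand: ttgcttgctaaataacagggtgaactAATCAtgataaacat
*Mrpl48*, chr7:100583337-100583377, minus strand: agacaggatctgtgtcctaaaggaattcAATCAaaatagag
*Bdnf*, chr2:109692939-109692979, plus strand: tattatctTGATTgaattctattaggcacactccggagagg
*Mllt10*, chr2:18196627-18196667, minus strand: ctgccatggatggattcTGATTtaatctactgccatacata
*Pafah1b2*, chr9:45985452-45985492, minus strand: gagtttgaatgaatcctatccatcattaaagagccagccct
*Zpld1*, chr16:55283304-55283344, minus strand: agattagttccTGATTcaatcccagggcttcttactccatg
*Rnf169*, chr7:99933080-99933120, minus strand: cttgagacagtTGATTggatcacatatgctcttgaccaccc
Of the members under 10-fold, 3 are shown for contrast, 1 with the word and 2 without it.
*Lipc*, chr9:70934818-70934858, minus strand: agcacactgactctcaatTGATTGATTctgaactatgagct
*Sgk1*, chr10:21985940-21985980, plus strand: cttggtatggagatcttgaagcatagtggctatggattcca
*Stk25*, chr1:93635856-93635896, minus strand: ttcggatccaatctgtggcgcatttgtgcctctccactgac

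AATCA stood in 15 of these 21 members (71.4%, exact binomial 95% interval 47.8 to 88.7%), against 143 of 277 other peaks read in the same way (51.6%, 45.6 to 57.6%). These intervals overlap. Of the 21, 11 were at 10-fold or more, against 104 of all 298 peaks read. As background, the central 41 bases of all 31363 promoter windows on the same chromosomes held AATCA in 6.60%. Those stretches sit at a fixed place in each window and were not matched to the members for base composition. The word was in 10 of the 11 members of at least 10-fold enrichment (90.9%, 58.7 to 99.8%) and in 5 of the 10 below (50.0%, 18.7 to 81.3%). Over all peaks read this way it was in 74 of 104 (71.2%, 61.4 to 79.6%) at 10-fold or more and 84 of 194 (43.3%, 36.2 to 50.6%) below, so the split by fold was not particular to members. *Pafah1b2*, which encodes a subunit of the platelet-activating factor acetylhydrolase, was the exception in the stronger set. The word was looked for only in the 41 bases centred on the summit, which by itself keeps every match close. Within that stretch the middle of the word lay 0 to 16 bases from the summit, with a median of 7 bases. It lay within 10 bases in 13 of 15 members. These distances were not compared with those of a word placed at random, so they do not show that the word is drawn to the summit.

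A longer word, GATTNAAT, in which N is any base and which can overlap AATCA, was found in 7 of the 21 members (33.3%, 14.6 to 57.0%), against 48 of 277 other peaks (17.3%, 13.1 to 22.3%) and 0.261% of the central stretches of all windows. The intervals of members and other peaks overlap. The members with GATTNAAT were those at *Meis1*, *Myl4*, *Elmo2*, *Mrpl48*, *Bdnf*, *Mllt10* and *Zpld1*, and all of them were at or above 10-fold. All 7 also held AATCA, so they are among the 15 members above and not a separate set. The full composite motif of mouse Dux was in 0 of the 21 members and 5 of 277 other peaks, and that of human DUX4 was in 1 member and 7 other peaks. With 21 members, the interval for a count of 0 reaches 16.1%. Both strands were searched for every word, AATCA and GATTNAAT were picked after the sequences had been seen, and a match is a run of letters and not a measured binding site.

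The strongest of these members lay at the start of *Gm16141* inside *Meis1*, a homeobox gene of blood and limb development, where 335 antisera fragments covered the summit, a 67.0-fold enrichment. The next lay at the start of *Gm11665* inside *Myl4*, the myosin light chain of atrial and embryonic muscle, with 206 fragments and 41.3-fold enrichment. At *Elmo2*, which acts with Dock proteins to activate Rac, the enrichment was 30.3-fold, and at *Bdnf*, the brain-derived neurotrophic factor, it was 14.96-fold. The distance rule keeps members away from most listed starts, so few can lie at one. Of the 9831 members on chromosomes with listed starts, which leaves out chromosome 18, 36 (0.366%, 0.257 to 0.507%) lay within 250 bases of a listed start of any gene. Within 1 kb lay 124 (1.26%, 1.05 to 1.502%) and within 5 kb 587 (5.97%, 5.51 to 6.46%). Of 6023 peaks in very long genes, to which the same distance rule applies, 7 (0.116%, 0.0467 to 0.239%) lay within 250 bases. Within 1 kb lay 32 (0.531%, 0.364 to 0.749%) and within 5 kb 150 (2.49%, 2.11 to 2.92%). Over all 47290 peaks on the same chromosomes, near gene ends or not, the shares were higher, at 0.880%, 2.69% and 11.2% in the same order. A promoter was listed for 16456 of 20661 coding genes, so these shares can miss starts. The remaining values describe positions whose sequence was not read here.

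Members were about as enriched as peaks elsewhere. Their median fold enrichment, antisera pileup over local control background, was 8.18 (95% order-statistic interval 7.98 to 8.25). It was 8.18 (7.98 to 8.38) at the 6228 peaks deep inside coding genes of 300 kb or more and 7.98 (7.98 to 8.18) at the 26463 peaks outside coding genes and over 5 kb from them. A median of 41 antisera fragments covered the summit in the members and in the 2 other classes. At 78.1% of members the background was 1 shared value, 4.01 fragments. Their fold therefore restates their pileup and is not a separate measure. Median width was 429 bp in members and 431 bp in very long genes. With 1 antisera and 1 control library there is no replicate check on any of these values, and intervals cover counting error only.

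The spread within the members was wide, with folds of 1.71 to 365. Of the members, 1497 (14.6%, 13.9 to 15.3%) reached 20-fold, against 13.9% (13.0 to 14.8%) in very long genes and 13.8% of all peaks on these chromosomes. At the top, 14 members (0.137%) reached 100-fold, against 9 peaks in very long genes (0.145%) and 0.165% of all peaks. At the bottom, 1700 members (16.6%, 15.9 to 17.3%) were under 5-fold, against 15.6% (14.7 to 16.5%) in very long genes and 16.5% of all peaks. Between 5 and 10-fold lay 4610 members (45.0%), which was the fullest class. None of the 3 shares stood clear of the very long genes once the counting intervals were considered.

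**Figure D1:**
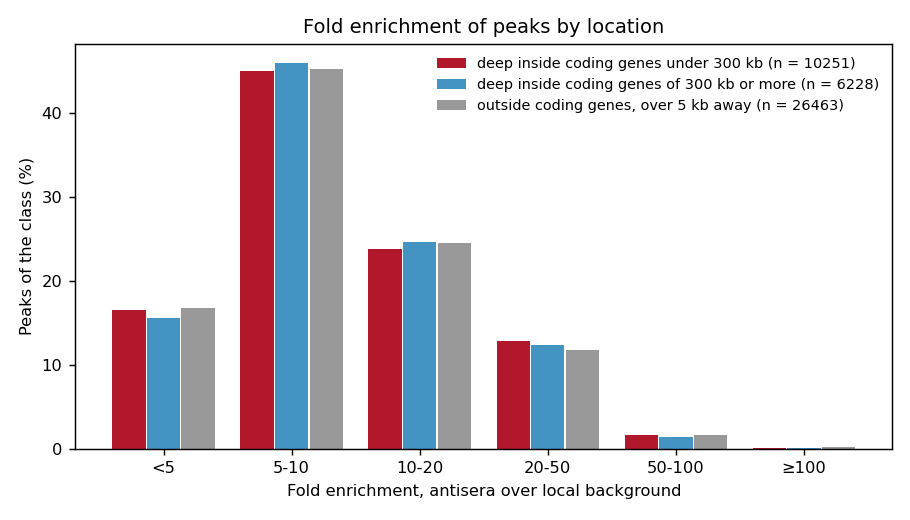
Share of peaks (%, vertical axis) in 6 classes of deposited fold enrichment (horizontal axis) for members (red), peaks deep inside coding genes of 300 kb or more (blue) and peaks outside coding genes (grey). The bars have nearly the same height in every class, with 45.0% of members between 5 and 10-fold and 14.6% at 20-fold or more.

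The strongest member covered 21602857 to 21604240 on chromosome 19, in *1110059E24Rik*, with 3431 antisera fragments (Poisson 95% interval 3317 to 3548) against a local background of 8.41 fragments, a 365-fold enrichment. It stood well apart from the rest. The next, in *Arhgef12* at 42984668 to 42985338 on chromosome 9, had 756 fragments (703 to 812) against a background of 4.01 and 151-fold enrichment. That background is the lowest in the peak list, called its floor here, and 78.1% of members stood at it. *Arhgef12* encodes a guanine nucleotide exchange factor for small GTPases, and the peak sat 121 kb from its 5′ end. The third was in *A2m*, the plasma protease inhibitor alpha-2-macroglobulin, with 731 fragments against 5.05, or 121-fold.

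The remaining members of at least 100-fold lay between 100-fold and 121-fold in genes of varied function, and *Rictor* was the last of them. *Ccdc191* reached 121-fold in the widest member of all, 3081 bp. *Mboat1*, a lysophospholipid acyltransferase, had 120-fold enrichment, and *Prkdc*, the catalytic subunit of the DNA-dependent protein kinase of double-strand break repair, had 119-fold. *Bcas1*, a gene of myelinating oligodendrocytes, also had 119-fold enrichment, with its summit 5951 bases from the nearer gene end. *Nfib*, a nuclear factor I transcription factor, had 112-fold enrichment at a summit 86.6 kb from the nearer end. *Rictor*, the defining subunit of mTOR complex 2, had 557 fragments against a background of 4.55.

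Of the 20 strongest, the other members at 100-fold or more were in *Gm39469* (118-fold), *1700012B07Rik* (112-fold), *Tmem65* (109-fold), *Khdrbs3* (104-fold) and *Spats2l* (103-fold). *Tmem65* encodes a mitochondrial inner membrane protein and *Khdrbs3* an RNA-binding splicing regulator. Just under 100-fold came *Disc1*, *Psme3ip1*, *Csf2rb2*, *Alkal1*, *Snx30* and *Tmprss11e*, at 92.8 to 99.9-fold. *Disc1* is a neuronal and centrosomal scaffold, *Csf2rb2* the mouse interleukin-3 receptor beta chain, and *Alkal1* a ligand of the receptor kinase ALK. Summits of the 20 lay 5.82 to 86.6 kb from the nearer coding end.

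**Figure D2:**
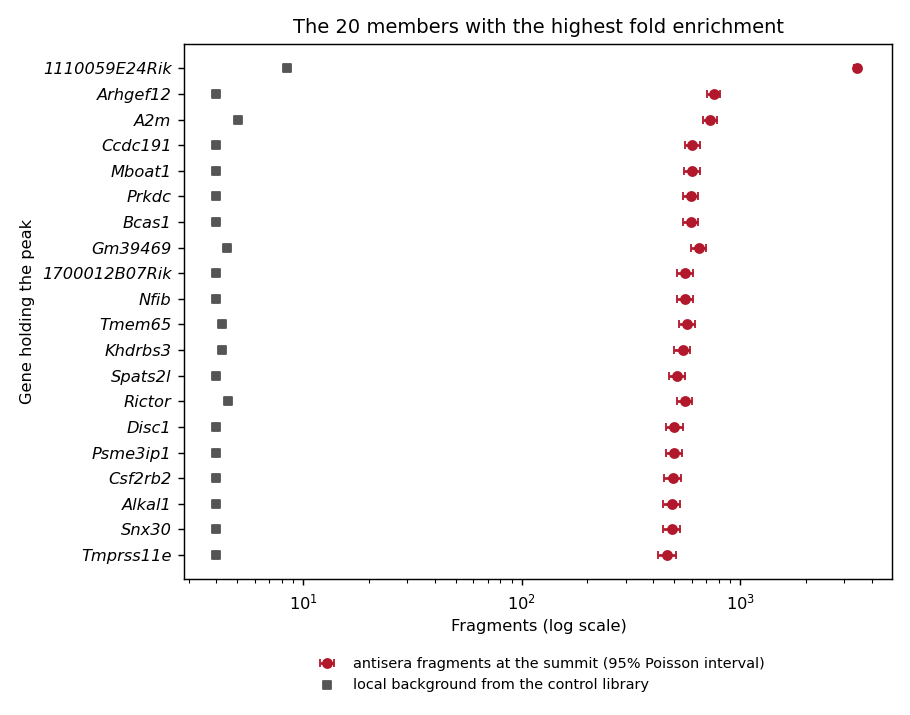
Antisera fragments at the summit (red circles, with Poisson 95% intervals) and local background from the control library (grey squares) on a log axis of fragments, for the 20 members with the highest fold, 1 per gene, named down the side. The top member, in *1110059E24Rik*, has 3431 fragments against 8.41, and the others have 464 to 756 fragments against backgrounds near the floor of 4.01.

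High counts were not always high enrichment. The 5 members with the highest local background were all in *Sfi1*, which encodes a centrosomal protein that binds centrin, on chromosome 11. All 6 members of that gene had a background of 76.1 to 101 fragments. Their pileups of 157 to 2133 antisera fragments gave folds of only 1.71 to 20.9, the lowest being the lowest of all members. The next highest background, 32.0 fragments, was in *2410141K09Rik*, a gene chosen after its value was seen. In all, 20 of the 10251 members had a background of 10 fragments or more. So did 1 of the 6228 peaks in very long genes and 110 of the 49034 peaks on all 19 chromosomes. The share in members was thus close to, and slightly below, that over all peaks.

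Members were spread through their genes. The nearer coding end was 5.001 to 149 kb away, with a median of 23.7 kb (quartiles 12.1 and 45.4 kb), and the longest gene over a summit had a median span of 108 kb. By that distance the median fold was 8.38 (8.15 to 8.78) at 5 to 10 kb (1939 members), 8.20 (7.98 to 8.58) at 10 to 20 kb, 8.02 (7.78 to 8.38) at 20 to 50 kb, 7.78 (7.55 to 7.98) at 50 to 100 kb and 9.37 (8.58 to 9.95) at 100 to 150 kb (329 members). The last class is the smallest, and its interval lies above those at 20 to 50 and 50 to 100 kb. At the 5 kb limit itself, the members just inside were in *Arsg*, *Atp6v0d1* and *1110051M20Rik*, at 6.98, 6.18 and 11.0-fold. The peaks just outside were in *Dbt*, *Por* and *Usp10*, at 40.3, 12.0 and 10.6-fold.

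The number of members per length of sequence was close to that of other parts of the genome. The interior open to members amounted to 521 Mb, 21.3% of the 2442 Mb between the first and last annotated gene of each chromosome. It held 19.7 members per Mb (Poisson 95% interval 19.3 to 20.1), against 21.2 peaks per Mb (20.6 to 21.7) deep inside very long genes, 19.8 (19.3 to 20.3) within 5 kb of coding ends and 20.1 (19.8 to 20.3) outside. The interval of the members did not meet that of very long genes, and it took in the values of both other classes. Bases that cannot be mapped were not removed from these lengths.

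Within the members, density was higher in longer genes. It was 16.3 per Mb (14.9 to 17.8) in genes of 10 to 25 kb, 17.6 in genes of 25 to 50 kb and 18.9 in genes of 50 to 100 kb. It then reached 21.1 in genes of 100 to 200 kb and 21.3 (20.3 to 22.2) in genes of 200 to 300 kb. Beyond the limit the density was 21.0 in genes of 300 to 500 kb, 20.7 in genes of 500 to 1000 kb and 22.1 in genes of 1000 to 3000 kb. Genes of 200 to 300 kb thus had 1.31 times (exact conditional binomial 95% interval 1.18 to 1.44) the density of genes of 10 to 25 kb. Median fold ran the other way by a small amount, from 8.78 (7.98 to 9.48) in the shortest class to 7.98 (7.78 to 8.18) in the longest, with intervals that meet.

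Position along the gene was compared for the 7858 members that lie in 1 coding gene of known strand. Density was 20.7 per Mb (19.8 to 21.7) in the first of 5 equal parts of the interior, counted from the 5′ end. In the next parts towards the 3′ end it was 20.5, 19.9, 18.1 and 17.4 per Mb (16.5 to 18.3 in the last). The 5′ part thus had 1.19 times (1.11 to 1.28) the density of the 3′ part. Median fold was 8.38, 8.003, 8.18, 8.18 and 7.78 in the same order, a spread of less than 1 in fold.

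**Figure D3:**
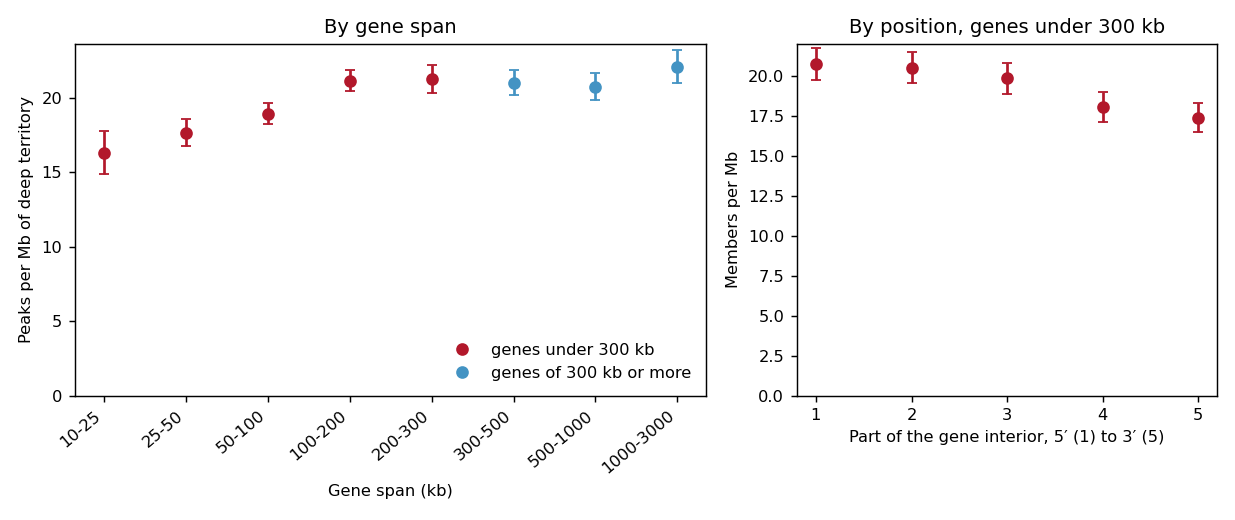
Left, peaks per Mb of deep interior (vertical axis) by gene span in kb (horizontal axis), for members in genes under 300 kb (red) and peaks in longer genes (blue). Right, members per Mb in 5 equal parts of the gene interior from the 5′ to the 3′ end. Bars are Poisson 95% intervals. Density is 16.3 per Mb in genes of 10 to 25 kb and 21.3 in genes of 200 to 300 kb, and 20.7 in the 5′ part and 17.4 in the 3′ part.

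Chromosome 15 carried the densest members, 28.8 per Mb (26.6 to 31.2), and the control library was also high there. The local background exceeded its floor at 83.3% of the members on chromosome 15 and 42.0% of those on chromosome 4, against 13.4 to 19.8% on the other 17 chromosomes. Chromosome 4 had 21.9 members per Mb (20.3 to 23.5), and the other 17 had 15.1 (chromosome 8) to 23.1 (chromosome 3). Peaks outside coding genes were dense on both chromosomes too, at 27.3 per Mb on chromosome 15 and 25.3 on chromosome 4. Without chromosomes 4 and 15 the members stood at 19.1 per Mb, the ratio by gene span at 1.24 and the ratio of the 5′ to the 3′ part at 1.18. The median fold of members lay between 7.78 and 8.58 on all 19 chromosomes.

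**Figure D4:**
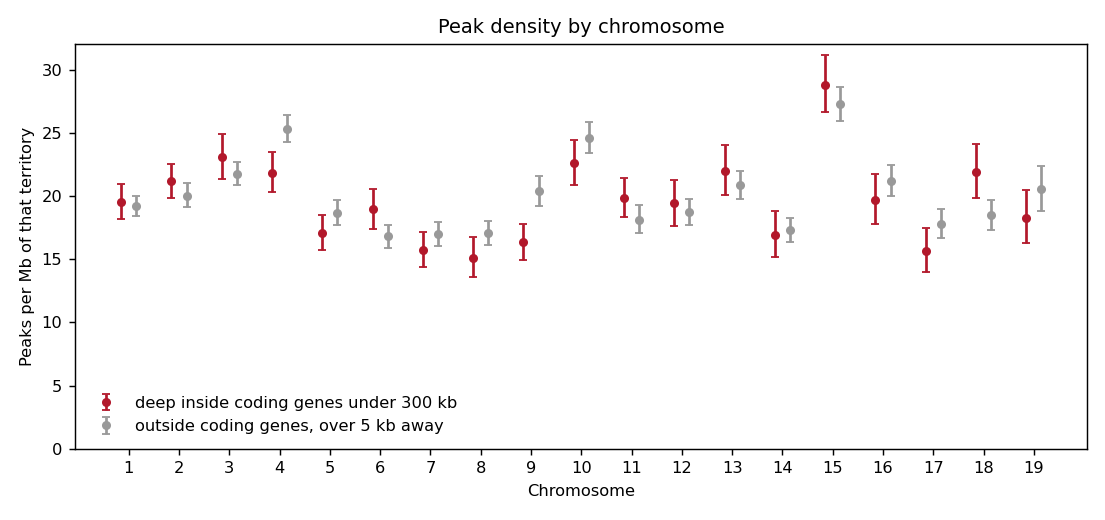
Peaks per Mb (vertical axis) with Poisson 95% intervals on chromosomes 1 to 19 (horizontal axis) for members (red) and peaks outside coding genes by over 5 kb (grey). Chromosome 15 is highest in both, at 28.8 and 27.3 per Mb, and members are denser than outside peaks on 9 of the 19 chromosomes.

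Other transcripts shared the ground with some members. The summit lay inside 2 or more coding genes at 49 members (0.478%) and inside a long noncoding RNA gene at 433 (4.22%, 3.84 to 4.63%), against 312 of the peaks in very long genes (5.01%, 4.48 to 5.58%). A pseudogene covered 34 members (0.332%, 0.230 to 0.463%), against 8 peaks in very long genes (0.128%, 0.0555 to 0.253%). No member lay in an annotated small RNA gene, and a count of 0 leaves room for a share of up to 0.0360%. Whether summits lay in exons or introns was not analysed here.

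Members were spaced much as other peaks were. The nearest other peak was a median of 13.0 kb away, against 11.5 kb for peaks in very long genes and 12.2 kb over all peaks. It lay within 1.5 kb at 804 members (7.84%, 7.33 to 8.38%), against 8.12% (7.46 to 8.83%) in very long genes and 8.36% of all peaks. It lay within 5 kb at 2798 members (27.3%, 26.4 to 28.2%), against 29.6% (28.5 to 30.7%) in very long genes and 28.6% of all peaks, so members were slightly less often that close than peaks in very long genes. Neighbouring members of the same gene were a median of 13.7 kb apart.

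By gene, 4546 of the 12787 coding genes that span more than 10 kb and less than 300 kb held at least 1 member (35.6%, 34.7 to 36.4%). Of these genes, 212 had no interior of their own that met the distance rule. A member of at least 20-fold was in 1227 genes (9.60%). One member was found in 2311 genes, 2 in 944, 3 in 486, 4 in 293 and 5 or more in 512, and those 512 held 33.7% of all pairs of gene and member. The share of genes holding a member was 8.95% at 10 to 25 kb, 32.0% at 25 to 50 kb, 59.0% at 50 to 100 kb, 83.9% at 100 to 200 kb and 93.7% at 200 to 300 kb. The share followed length closely. Spearman's rank correlation between span and number of members was 0.61 across genes, which are not replicates.

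The gene with the most members was *Angpt1*, which encodes angiopoietin 1, a ligand of the endothelial receptor Tie2. It held 21 members over 252 kb of chromosome 15, or 86.7 per Mb of its interior (53.6 to 132), with folds of 4.03 to 85.2 and a median of 9.35. The background was above the floor at 19 of the 21. *Ptprr*, a receptor-type tyrosine phosphatase on chromosome 10, held 16, the best at 58.6-fold, and only 2 of the 16 had a background above the floor. *Nfib* held 15, of which the best was the 112-fold peak described above. *Cers6*, a ceramide synthase on chromosome 2, held 14, with 6 of them at 20-fold or more, the best at 77.2-fold, and 1 above the background floor.

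*Pdlim5*, a LIM-domain protein of the muscle Z-disc, held 14 members in a gene of 156 kb, 95.8 per Mb (52.4 to 161), the best at 51.6-fold. *Sntb1*, a syntrophin of the dystrophin complex, *Ext1*, a heparan sulphate polymerase, and *Myo1d*, an unconventional myosin, also held 14 each. *Fut9*, a fucosyltransferase that makes the Lewis x antigen, and *Fyb*, an adaptor of T cell signalling, held 13 each. *Fyb* was the densest of the 10 genes at 97.9 per Mb (52.1 to 167). *Angpt1*, *Sntb1*, *Ext1* and *Fyb* are on chromosome 15 and *Nfib* and *Fut9* on chromosome 4, where the control background was high, and its part in these counts was not tested. *Ptprr*, *Cers6*, *Pdlim5* and *Myo1d* are on other chromosomes, and 1 to 5 of their 14 to 16 members had a background above the floor.

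Long genes without members were rare. Of genes of 200 to 300 kb, 26 held none, and 8 of the 26 had no interior that met the rule. The largest empty interiors were those of *Kcnmb2*, a potassium channel beta subunit (288 kb), *Adamtsl3*, an ADAMTS-like matrix protein (269 kb), *Gm4724* (256 kb) and *Zdhhc14*, a palmitoyltransferase (251 kb), genes picked after their values were seen. At the 300 kb limit, the longest genes inside were *Akap13* (299.1 kb, 8 members), *Atp2b2* (298.8 kb, 4) and *AW554918* (298.6 kb, 9). Just outside were *Zfp423* (300.2 kb, 1 peak), *Kcnq3* (300.3 kb, 14) and *Jazf1* (300.6 kb, 2).

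The genes were also read through 16 lists of pathways and families. In 12 of the 16 the share of genes holding a member was above the 35.6% of all eligible genes, and those 12 had median spans of 35.0 to 81.7 kb, against 31.6 kb over all eligible genes. The 4 lists below it had median spans of 20.5 to 25.5 kb, except the potassium channels at 37.03 kb. To take length out, members were counted per Mb of each list's own interior, against 19.7 over all members. The lists were counted as pairs of gene and member, which gave 144 for the Zfp genes against 142 separate members. In the other lists the counts were equal. On that scale the intervals of 14 lists took in 19.7. The other 2 were the skeletal muscle list, which was higher, and the motor proteins, which were lower. No test was made on these lists, whose genes share chromosomes and in part each other.

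Skeletal muscle genes, the programme of the cell line itself, held a member in 31 of 57 cases (54.4%, 40.7 to 67.6%). Of the 57, 12 (21.1%) held one of at least 20-fold, against 9.60% of all eligible genes, whose median span is 31.6 kb to the list's 62.8 kb. That share was not particular to muscle. Over the lists it ran from 5.45% (TRIM and F-box genes) to 22.2% (insulin, PI3K and mTOR signalling), with 19.5% in collagens, integrins and laminins. The median fold of the muscle members was 7.58, against 8.18 over all members. The interiors of the muscle genes carried 26.6 members per Mb (21.8 to 32.0), and 25.6 (20.7 to 31.3) without chromosomes 4 and 15. With −log10 q of at least 20 the value was 13.9 per Mb (10.5 to 17.9), against 11.2 over all members, so this density no longer stood clear. *Pdlim5* and *Sntb1* gave 14 members each of the list's 111. The strongest members were in *Sntb2*, another syntrophin, at 58.6-fold, in *Mef2a*, a transcription factor of muscle differentiation, at 53.7-fold, and in *Pdlim5* at 51.6-fold.

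Kinesins, dyneins and unconventional myosins held a member in 38 of 70 genes (54.3%), at 15.5 per Mb (12.5 to 18.98), and 13.8 (10.9 to 17.3) without chromosomes 4 and 15. Their strongest were *Kif21b*, a kinesin, at 34.9-fold, *Dync2h1*, the dynein heavy chain of cilia, at 29.7-fold, and *Myo1d* at 28.9-fold.

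Dux is known to drive the early embryonic programme, and a list of single genes tied to the 2-cell stage includes repressors of it as well as targets. Of 17 single genes of the 2-cell list, 5 held a member (29.4%, 10.3 to 56.0%), at 17.6 per Mb (8.04 to 33.4), and both intervals take in the values over all genes. The strongest were in the repressors *Kdm1a*, a histone demethylase, at 31.9-fold and *Smchd1*, a chromatin protein of X inactivation, at 20.2-fold, followed by *Trim66* at 7.66-fold. Chromatin regulators as a whole held a member in 60 of 99 genes (60.6%, 50.3 to 70.3%), with 19.04 per Mb (15.8 to 22.7). *Chd9*, a chromatin remodeller, had 60.2-fold enrichment, *Ncor1*, a nuclear receptor corepressor, 38.9-fold and *Brd7*, a bromodomain subunit of SWI/SNF complexes, 36.3-fold. In the miRNA machinery, 9 of 13 genes held a member (69.2%, 38.6 to 90.9%), at 22.2 per Mb (13.7 to 33.9). They included *Prkra*, a partner of Dicer, at 36.7-fold, *Drosha*, which cuts primary miRNAs, at 24.3-fold and *Tnrc6b*, a silencing effector, at 19.2-fold.

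In the signalling lists, members stood in genes for secreted factors, cytoplasmic regulators and nuclear factors. In the Wnt list, 35 of 70 genes held a member (50.0%), at 22.2 per Mb (17.9 to 27.3). The secreted enhancer *Rspo3* had 57.2-fold enrichment, the nuclear factor *Tcf7l2* 50.7-fold and the corepressor *Tle1* 49.7-fold. In the TGF-beta and BMP list, 22 of 48 genes did (45.8%), at 17.5 per Mb (12.8 to 23.3), led by the repressor *Zeb1* at 80.8-fold, the BMP effector *Smad1* at 48.5-fold and *Zfyve9*, the anchor of receptor-regulated Smads, at 44.9-fold. In insulin, PI3K and mTOR signalling, 28 of 54 genes did (51.9%), at 19.05 per Mb (15.2 to 23.5). There *Rictor* was followed by *Tbc1d1*, a Rab regulator of glucose transporter traffic, at 80.0-fold and by *Rptor*, the defining subunit of mTOR complex 1, at 38.5-fold.

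Among families at or above the overall share, ADAM and ADAMTS proteases held a member in 23 of 40 genes (57.5%), the best in *Adamts6* at 60.4-fold, *Adamts16* at 32.1-fold and *Adamts19* at 30.9-fold. Collagens, integrins and laminins did so in 42 of 77 (54.5%), with *Col14a1* at 91.8-fold, *Col28a1* at 53.5-fold and the integrin *Itga4* at 44.7-fold. Rab and TBC domain genes did so in 41 of 97 (42.3%), with *Tbc1d22a* at 52.9-fold and *Rabgap1* at 46.5-fold after *Tbc1d1*. Solute carriers did so in 119 of 309 (38.5%, 33.1 to 44.2%), with the aromatic amino acid transporter *Slc16a10* at 89.4-fold, the zinc transporter *Slc30a7* at 88.6-fold and the sodium-proton exchanger *Slc9a4* at 80.8-fold. Guidance receptors and ligands did so in 17 of 47 (36.2%), with *Epha4* at 48.1-fold, *Sema3e* at 40.1-fold and *Nrp1* at 39.5-fold.

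The 3 families below the overall share were zinc-finger, ubiquitin-ligase and channel genes. Zinc-finger genes named Zfp, with a median span of 20.5 kb, held a member in 80 of 324 (24.7%, 20.1 to 29.8%) but carried 21.2 per Mb (17.9 to 24.98), the best in *Zfp608* at 61.2-fold, *Zfp277* at 53.6-fold and *Zfp609* at 53.1-fold. TRIM and F-box genes held a member in 31 of 110 (28.2%), at 18.4 per Mb (13.7 to 24.1), the best in *Trim44* at 77.6-fold, *Fbxo34* at 52.5-fold and *Trim62* at 29.7-fold. Potassium channels, with a median span of 37.03 kb, held one in 17 of 51 (33.3%), at 14.4 per Mb (10.3 to 19.7), among them *Kcnj5* at 31.5-fold and *Kcnh5* at 24.3-fold.

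**Figure D5:**
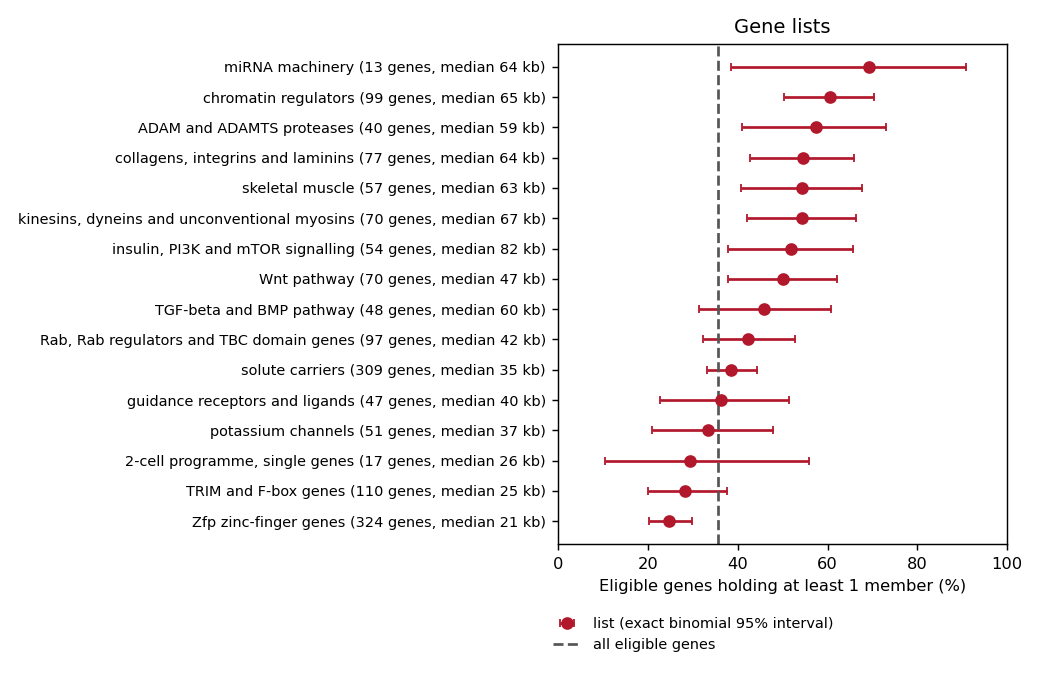
Share of eligible genes holding at least 1 member (%, horizontal axis) in each of 16 gene lists (down the side, with the number of eligible genes and their median span), with exact binomial 95% intervals. The dashed line is the share of all eligible genes, 35.6%. Shares run between 69.2% in the miRNA machinery and 24.7% in Zfp zinc-finger genes.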

How the data were processed

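The submitters' processing notes name BWA, MACS2 and mm10. MACS2 2.1.0.20151222 compared paired-end fragments of the antisera and control libraries, per the file headers, and the authors kept peaks at a q-value of 0.01 and an effective genome size of 1870000000, with at most 1 fragment per position. Of 32659686 antisera fragments, 26253175 remained after duplicate removal (20% redundant), and of 40115471 control fragments, 23412256 (42% redundant). Filters on mapping: not given in the sources used here. The deposited pileup is a signal, the fragments over the summit. The deposited fold is a ratio, pileup plus 1 over background plus 1, and the authors' −log10 q is used for filtering. These values are the peak caller's own and serve to describe and rank peaks within 1 list.

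Pileup and fold, with that pseudocount of 1, give back the local background. Recomputed Poisson p-values matched the deposited −log10 p within 1% at 100% of the 50196 peaks with a finite value. Its floor, 4.01 fragments, was shared by 78.0% of peaks (tolerance 0.001).

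Gene spans and promoter windows came from RefSeq (GRCm38.p6). Strand was known for 16456 of 20661 coding genes, those with a listed promoter. Territory was counted base by base between the outermost annotated genes. The classification was tested on simulated data, with 4000 of 4000 positions on chromosome 19 recovered. No genome sequence was used, so the planned motif search within 100 bases of summits became a search of 41 bases inside promoter windows. Binomial, Poisson and order-statistic intervals are at 95%, cover counting error only and are not tests. The peaks outside chromosomes 1 to 19, 2322 in all, were left out. Python 3.11.15, numpy 2.4.6, pandas 2.3.3 and scipy 1.17.1 were used.

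Members and lists were chosen with earlier results of these data known. Named genes are the 20 members of highest fold with a background under 10 fragments (1 per gene), the 10 genes with most members, at most 3 genes per list by fold, the 3 peaks on each side of each limit and the 5 members of highest background. Some genes that this rule would name are not reported here. Densities per list, promoter sequences and genes said to be picked later were added after the values were seen.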

Additional observations from a re-analysis of the deposited data

How the results depend on the processing

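Counts, shares, medians and list shares were recomputed with stricter q-values, other distances and span limits, ends of every gene type, the whole peak in place of the summit, and without high-background peaks or chromosomes 4 and 15; the density ratios and list densities only with a stricter q-value and without those peaks or chromosomes. Peaks with −log10 q of at least 20 left 5809 members with a median fold of 12.8, a median pileup of 65, 25.8% at 20-fold or more, 11.2 per Mb and 26.1% of genes holding one. At over 2 kb from coding ends members were 24.2% of peaks and in 33.2% of genes; at over 10 kb, 16.95% and 39.0%, with 20.1 per Mb. With spans under 200 kb they were 16.9% of peaks and in 33.6% of genes, and under 500 kb 25.9% and 37.1%. Measured from ends of genes of every type they were 18.997% and in 33.3%. Without chromosomes 4 and 15 there were 19.1 per Mb. AATCA stood in 10 of the 11 members read at −log10 q of at least 20 (90.9%), which are the same 11 as at 10-fold or more. With 10 bases on each side of the summit in place of 20 it stood in 11 of 21 (52.4%). With 50 bases on each side it stood in 12 of 17 (70.6%). GATTNAAT in its place stood in 7 of 21 (33.3%). The ratio by gene span was 1.24 and that between the 5′ and 3′ parts 1.26 with −log10 q of at least 20. The number of lists above the overall share, 12, was 11 to 13. Potassium channels passed it at spans under 500 kb (42.4%). They also passed it with −log10 q of at least 20 (27.5% against 26.1%). With ends of genes of every type they did so narrowly (33.33% against 33.28%). Guidance genes fell under it at spans under 200 kb (31.8%) and solute carriers at over 10 kb (37.96%). Of the other values, 80 of the main and 185 of the list ones kept within their counting interval or, for counts, within 1.5 times, and 23 list values did not. No paired analysis was possible because there is 1 library per group. A member at the median rests on 41 fragments, and the spread between immunoprecipitations is unknown.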
